A study of Homo sapiens with 24 samples.

Results

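The comparison described here sets MCF-10A cells that carry MYC-ER against parental MCF-10A cells after 48 h of 4-hydroxytamoxifen (4-OHT), across all genes. Its members are the 3 libraries of each line labelled 48 h, 6 of the 24 libraries in the series. MCF-10A is an immortalised, non-tumour human mammary epithelial line. Both lines, genotype MYC.ER and genotype wild-type, were grown in 3 dimensions on growth factor-reduced Matrigel from 10000 cells per well, and received 1 µM 4-OHT from day 3 until all cells were collected on day 5. The same lines at 0, 8 and 24 h of 4-OHT, also collected on day 5, served to place the 48 h difference. There is 1 line of each genotype: whether the MYC-ER line is a clone or a pool, and which promoter drives the fusion, are not given in the sources used here. The labels do not say whether the 3 replicates of a group came from separate cultures, so the p-values measure the spread between these libraries, which may be technical.

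MYC is a transcription factor that pairs with MAX on E-box sequences (CACGTG and related sites) and is known for driving ribosome building, nucleotide synthesis, metabolism and entry into the cell cycle. In MYC-ER it is joined to a receptor domain that binds 4-OHT, taken from the oestrogen receptor, which holds the protein inactive until 4-OHT binds. Both lines received 4-OHT here, so the drug was common to the groups and the line was what differed. In mammary epithelium grown on Matrigel, single cells form hollow spheres (acini) whose cells gradually leave the cell cycle.

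The 6 libraries held 136860029 to 176299944 counts. Levels are in CPM, which puts the counts of every library on 1 common total after TMM scaling, and differences are log2 of MYC-ER over parental with a standard error (SE). Mitochondrial genes took 6.57% to 6.78% of the counts in MYC-ER and 6.59% to 7.78% in parental libraries. Replicates correlated across genes at Spearman 0.987 or above within a line, and libraries of different lines at 0.960 to 0.963. In bulk RNA, fewer cells of a type and less RNA per cell cannot be told apart, and CPM values are shares of a library, not amounts per cell.

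Of 22158 genes tested with edgeR's quasi-likelihood test and Benjamini-Hochberg adjustment, 12567 (56.7%) differed between the lines at 48 h. Of these, 6057 were higher in MYC-ER (27.3% of genes tested) and 6510 lower (29.4%). The balance depended on the scaling: 48.2% of called genes were higher with TMM, and 59.8% with library size alone, which moved the difference of all genes by 0.14. A difference of at least 2-fold was called for 4469 genes (20.2%), 2784 of them higher (12.6%) and 1685 lower (7.6%). With a stricter filter of 10 counts in every library, 2725 genes remained past this mark among 16056 tested. For 14795 genes (66.8%) the replicate values of the lines did not overlap. The median difference was 0.02 over all genes tested and -0.17 over the 9795 genes that averaged 10 CPM or more. Because 56.7% of all genes were called, the gene groups that follow are read against these shares.

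The MYC row of the table (ENSG00000136997.19) was lower in the MYC-ER line. MYC stood at 244, 247 and 253 CPM in MYC-ER and at 486, 534 and 556 CPM in parental replicates 1 to 3. The groups did not overlap, and the difference was -1.08 (SE 0.07, adjusted p = 1.23e-11), a level 2.12-fold lower. Whether reads from the fusion count towards this row or that of ESR1, the oestrogen receptor gene, is not given in the sources used here. Neither row thus checks the label. ESR1 was low in all 6 libraries, at 0.274 to 0.456 CPM in MYC-ER (46 to 69 counts) and 0.115 to 0.159 CPM in parental (18 to 29 counts). Its difference of 1.28 (adjusted p = 0.0252) was 1.06 without MYC-ER replicate 2 and 1.14 without parental replicate 2, with adjusted p above the threshold in both. CDKN2A and CDKN2B, cell cycle inhibitor genes that MCF-10A is known to lack, had 0 counts in every library, which allows at most 0.0219 CPM. Among the 13 tested members of the MYC, MAX and MXD network, 6 were higher and 4 lower. MXI1, a MAX partner that opposes MYC, stood at 72.2, 71.7 and 72.3 CPM in MYC-ER against 35.6, 36.7 and 36.5 in parental (difference 0.99). MXD4, of the same family, was higher by 0.54, while MXD1 was lower (-0.74).

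Among genes with a symbol and at least 10 CPM in the higher line, those with the largest excess in MYC-ER at 48 h mixed metabolic enzymes, immune-type genes and transcription factors. CYP3A5, a drug- and steroid-oxidising cytochrome P450 (chromosome 7), stood at 42.8, 44.7 and 42.4 CPM in MYC-ER against 0.367, 0.325 and 0.443 CPM in parental. The difference was 6.84 (SE 0.24, adjusted p = 1.19e-15), or 115-fold. Its relatives in the CYP3A cluster are similar in sequence, so reads could be split between them. CR2, a complement receptor best known from B cells, stood at 18.6, 19.2 and 17.5 CPM against 0.23, 0.185 and 0.104 CPM, a difference of 6.70 (SE 0.38, adjusted p = 2.99e-12). ELF3, an epithelial ETS factor, stood at 21.3, 21.1 and 24.4 CPM against 0.197, 0.331 and 0.173 CPM, a difference of 6.57 (SE 0.27). ACSS1, the mitochondrial enzyme that turns acetate into acetyl-CoA, stood at 31.8, 31.9 and 30.1 CPM against 0.707, 0.554 and 0.63 CPM (5.63). All MYC-ER values of these genes lay far above all parental values. ADHFE1, a mitochondrial hydroxyacid dehydrogenase, differed by 5.13.

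Further immune-type genes were among them. LAPTM5, a lysosomal membrane protein best known from blood cells, stood at 175, 177 and 178 CPM against 4.45, 4.8 and 5.17 CPM (5.20). CXCR4, a chemokine receptor, stood at 16, 16.4 and 14.8 CPM against 0.515, 0.286 and 0.623 CPM (5.05). CSF1, the growth factor of macrophages and a member of the cytokine list, was at 128 CPM in each MYC-ER library and at 5.72, 4.48 and 4.88 CPM in parental ones, 25.5-fold higher (log2 4.67, SE 0.10, adjusted p = 4.86e-19). No value of one line reached those of the other for these genes. CXCL14, an epithelial chemokine, differed by 5.18, and NFATC4, a calcium-responsive transcription factor, by 5.64. CHI3L2, a chitinase-like secreted protein, stood at 23.1, 24.9 and 24.3 CPM against 0.334, 0.407 and 0.387 CPM. LINC02518, a long non-coding RNA, and MAP7D2, a microtubule-binding protein, differed by 6.25 and 4.88. Leukocyte markers were measured beside these: PTPRC, CD3D, CD3E, CD2 and MS4A1 had 0 counts in all 6 libraries, which allows at most 0.0219 CPM each. Of 14 such markers 7 were tested, with 2 higher and 1 lower (3 lower without MYC-ER replicate 3). Their summed level was 44.6 to 48.3 CPM in MYC-ER and 31.5 to 31.9 CPM in parental. Of this, CSF1R, the receptor of CSF1, made up 29.3 to 30.7 CPM in MYC-ER and 18 to 18.3 CPM in parental (0.72). ITGAM, an integrin chain of myeloid cells and the other higher marker, stood at 6.1, 5.6 and 6.32 CPM against 0.877, 0.942 and 1.24 CPM (2.56, adjusted p = 7.76e-10).

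Those with the largest deficit included receptors, a phosphatase and secreted inhibitors. CHRNA9, a nicotinic acetylcholine receptor subunit, stood at 0.611, 0.641 and 0.399 CPM in MYC-ER against 28.8, 30.8 and 33.7 CPM in parental (-5.82, SE 0.15, adjusted p = 7.94e-18). DUSP6, the phosphatase that switches off the kinase ERK and is itself induced by it, stood at 9.04, 9.31 and 10.5 CPM against 315, 326 and 345 CPM, 34.2-fold lower (-5.10, SE 0.11, adjusted p = 4.86e-19). GJB2, a gap junction protein, stood at 12.3, 11.6 and 12.5 CPM against 155, 180 and 186 CPM (-3.84). The lines did not overlap for any of them. SERPINE2, an inhibitor of thrombin and plasminogen activators, differed by -4.07, PLA2G4E, a phospholipase, by -4.76, NTSR1, the neurotensin receptor, by -4.73, and CCNA1, a cyclin, by -4.33. MALL, a membrane raft protein, and KCNJ15, a potassium channel, differed by -4.44 and -4.38. EVI2B (-4.41) lies within an intron of NF1 and RPSAP52 (-3.87) is a pseudogene antisense to HMGA2. Both are uncertain, since the sources used here do not give whether counting used strand.

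**Figure D1:**
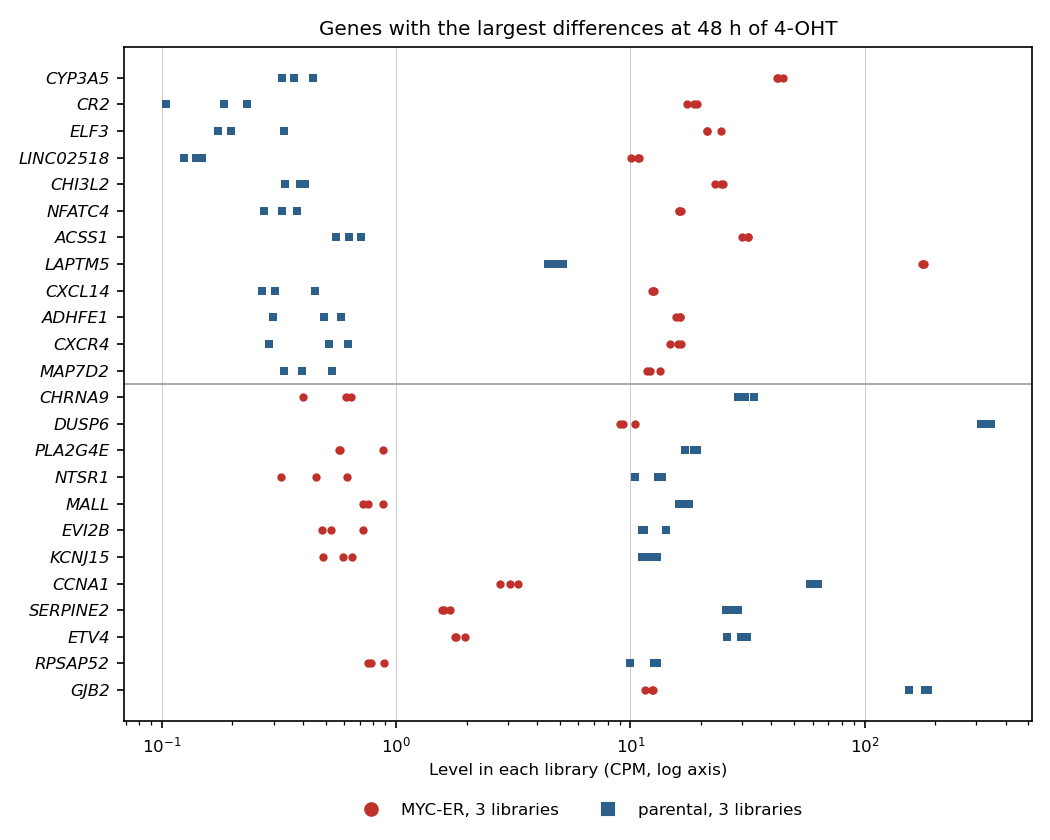
Level of 24 genes in the 6 libraries at 48 h, in CPM on a log axis, with 1 point per library (circles MYC-ER, squares parental). The 12 genes above the line are those with the largest excess in MYC-ER and the 12 below those with the largest deficit, among genes with a symbol and at least 10 CPM in the higher line. The lines do not overlap for any of these genes, as the rule that chose them required.

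Cell cycle genes were lower in MYC-ER at 48 h. Of 38 genes of G2 and mitosis, 36 were lower and 0 higher, with a median difference of -1.03 beside 0.02 for all genes. The 2 not called were NUSAP1 and PIF1. KIF23, a motor protein of cell division, stood at 22.6, 21.2 and 20.6 CPM in MYC-ER against 58.8, 57.1 and 59.4 CPM in parental (-1.45, SE 0.07, adjusted p = 1.41e-13). Every MYC-ER library was below every parental one. The spindle checkpoint genes BUB1B, BUB1 and MAD2L1 differed by -1.46, -1.39 and -1.35, and MKI67, the proliferation marker Ki-67, by -1.14 (98.6, 102 and 92.1 CPM against 216, 217 and 211). Promoters of such genes are known to carry the cell cycle homology region (TTTGAA) near CCAAT boxes. Of the 32 members with a RefSeq promoter (GRCh38.p14, 250 bases before to 50 after the start), 22 (68.8%) held TTTGAA on either strand, against 15.2% of all 35116 promoters. CCAAT was in 24 of the 32 (75%), against 34.6% of all. The promoter of KIF23 (chr15:69414099-69414398, plus strand) holds both, and is shown with its matches in capitals, CCAAT on the opposite strand.
KIF23: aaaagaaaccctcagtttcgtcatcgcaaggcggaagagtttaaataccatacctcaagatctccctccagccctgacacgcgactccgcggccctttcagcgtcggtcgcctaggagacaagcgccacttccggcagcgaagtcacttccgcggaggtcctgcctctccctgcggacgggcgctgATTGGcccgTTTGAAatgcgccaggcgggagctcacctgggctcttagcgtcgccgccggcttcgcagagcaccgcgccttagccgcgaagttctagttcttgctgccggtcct

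The deficit was wider for DNA replication. Of 40 S phase genes, 39 were lower and 0 higher (1 higher with library size alone or upper-quartile scaling), with a median of -1.39. RRM2, a subunit of the enzyme that makes deoxynucleotides, stood at 22.4, 19.8 and 19.9 CPM in MYC-ER against 117, 132 and 143 CPM in parental, 6.3-fold lower (-2.66, SE 0.10, adjusted p = 1.59e-15). CCNE2, the cyclin of S phase entry, stood at 1.03, 1.18 and 1.03 CPM against 9.37, 10.3 and 10.5 CPM (-3.22). The lines did not overlap. MCM10, a replication initiation factor, differed by -2.73, and UHRF1, which brings DNA methylation to new strands, by -2.25. CDT1, the licensing factor, was the member not called. E2F sites were counted as 2 fixed strings. TTTCCCGC was in 10 of 35 promoters of these genes (28.6%) and in 1.63% of all, and TTTGGCGC in 8 of 35 (22.9%) and in 0.652% of all. The UHRF1 promoter (chr19:4909251-4909550, plus strand) is shown with its TTTCCCGC, on the opposite strand, in capitals.
UHRF1: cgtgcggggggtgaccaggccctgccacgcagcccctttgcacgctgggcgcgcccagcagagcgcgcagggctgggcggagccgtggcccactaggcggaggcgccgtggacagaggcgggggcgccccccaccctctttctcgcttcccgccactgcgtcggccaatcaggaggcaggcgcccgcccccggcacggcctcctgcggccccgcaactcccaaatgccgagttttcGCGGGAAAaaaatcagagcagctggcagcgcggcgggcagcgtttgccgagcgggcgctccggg

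Among 14 cyclin-dependent kinase inhibitors and G1 regulators, 4 were higher and 7 lower (median -0.17). CDKN1C, the inhibitor p57, stood at 66.3, 60.9 and 53.4 CPM in MYC-ER against 17.3, 18.1 and 16.6 CPM in parental (1.79, SE 0.10). CDKN1B, the inhibitor p27, was higher by 0.76, and CDKN1A, the inhibitor p21, was not called (-0.09, adjusted p = 0.201). On the other side CCND1, cyclin D1, stood at 41.8, 41 and 40.8 CPM against 133, 150 and 158 CPM (-1.83), CDC25A, which activates the kinases, differed by -2.16 and RB1 by -0.89. DNMT1, the maintenance DNA methyltransferase, differed by -1.50 and HELLS, a remodeller that works with it, by -1.15, while EZH1, a histone methyltransferase of the Polycomb system, was higher by 0.83. In the list of DNA methylation and Polycomb genes, 6 of 12 were lower and 3 higher (median -0.24).

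Genes of ribosome building and nucleotide synthesis, textbook targets of MYC, were mostly lower in the MYC-ER line as well. Of 48 members, 42 were lower and 3 higher, with a median of -0.79. ODC1, the first enzyme of polyamine synthesis, stood at 117, 116 and 112 CPM in MYC-ER against 344, 386 and 420 CPM in parental (-1.74, SE 0.06, adjusted p = 1.04e-15). NCL, the nucleolar protein nucleolin, stood at 648, 635 and 635 CPM against 945, 1058 and 1139 CPM (-0.71). No MYC-ER library reached a parental one. RRS1 and UTP20, ribosome assembly factors, differed by -1.72 and -1.39, and LDHA, lactate dehydrogenase, by -1.39. The 3 higher members were IMPDH2, the committed enzyme of guanine nucleotide synthesis (0.68), FBL, the fibrillarin that methylates ribosomal RNA (0.42), and NPM1, nucleophosmin (0.36). The E-box CACGTG, which reads the same on both strands, was in 15 of 40 promoters of the list (37.5%) and in 7.26% of all. UTP20 (promoter at chr12:101279855-101280154, plus strand) is shown with the E-box in capitals.
UTP20: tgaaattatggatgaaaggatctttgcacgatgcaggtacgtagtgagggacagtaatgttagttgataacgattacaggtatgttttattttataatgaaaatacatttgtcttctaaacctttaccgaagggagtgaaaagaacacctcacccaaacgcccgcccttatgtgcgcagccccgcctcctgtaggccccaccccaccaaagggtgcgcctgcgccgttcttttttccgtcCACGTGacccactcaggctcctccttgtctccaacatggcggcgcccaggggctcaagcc

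Other growth-related groups leaned the same way. Of 30 proteasome subunits 25 were lower and 1 higher (median -0.46), with PSMD1 at 64.4, 64.3 and 62 CPM in MYC-ER against 143, 145 and 157 CPM in parental (-1.22). Of 22 genes of glycolysis and glucose uptake 16 were lower and 2 higher (4 higher with library size alone, median -0.37). PKM, pyruvate kinase, differed by -1.20, SLC16A3, a lactate exporter, by -1.32 and SLC2A1, the glucose carrier GLUT1, by -1.04. Sterol synthesis had 15 of 23 members lower and 3 higher (6 higher with library size alone, median -0.40), led by FDPS (-1.12), the farnesyl diphosphate synthase. Fatty acid synthesis had 7 of 10 lower and 1 higher (-0.57), led by the desaturase FADS2 (-1.33) and ACLY, ATP citrate lyase (-0.97). SR proteins and splicing regulators were divided, with 13 of 22 lower and 7 higher. The splicing factors HNRNPA2B1 and TRA2B stood at 524 to 542 and 92.8 to 96.4 CPM in MYC-ER against 995 to 1183 and 187 to 196 CPM in parental, and the kinases of SR proteins CLK1 and CLK4 differed by 1.13 and 0.92. Genes of the mitochondrial genome had 7 of 15 lower (4 without MYC-ER replicate 2) and 2 higher, the ribosomal RNAs MT-RNR1 (1.30) and MT-RNR2 (0.81). Nuclear copies of mitochondrial sequence make these rows uncertain.

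**Figure D2:**
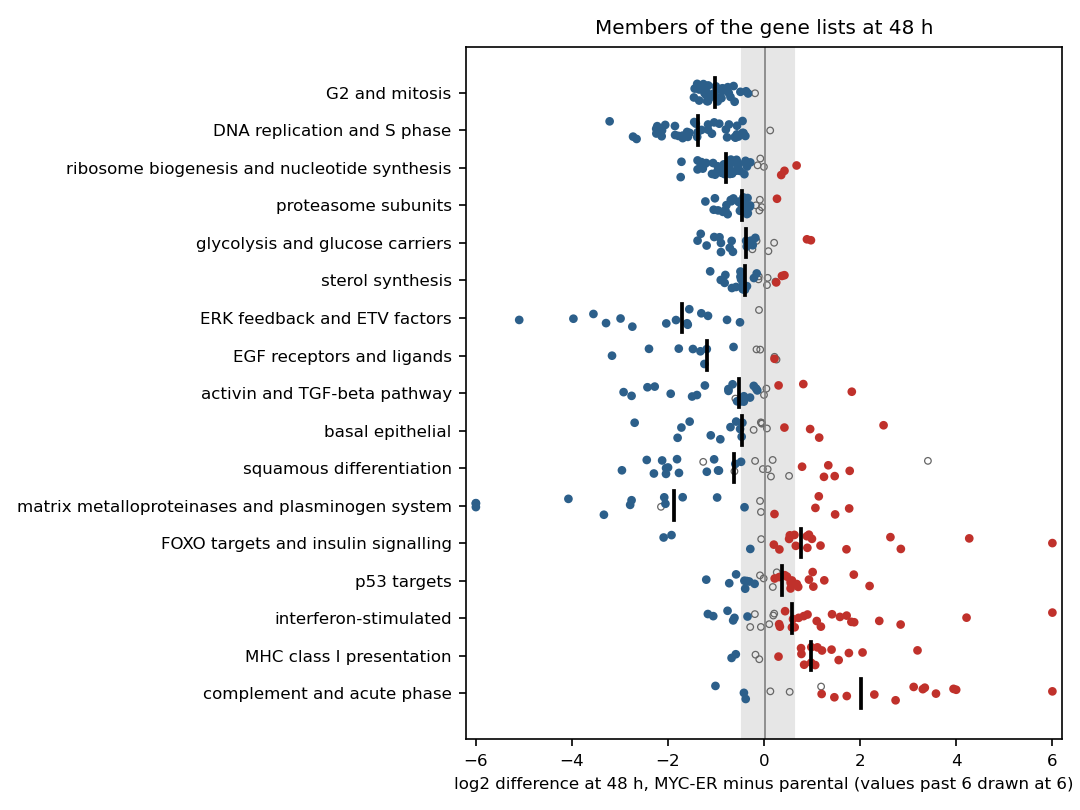
Difference at 48 h, log2 of MYC-ER over parental, for the tested members of 17 gene lists, with 1 point per gene and values past 6 drawn at the edge. Filled points passed the test (red higher, blue lower in MYC-ER), open ones did not, black bars mark list medians, and the grey band the middle of all genes tested from -0.45 to 0.63. Cell cycle and ribosome-building genes sit to the left and presentation and complement genes to the right.

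Known output genes of ERK and EGF receptor signalling were lower in MYC-ER. Of 16 ERK feedback genes and ETV factors, 15 were lower and 0 higher (median -1.72). Beside DUSP6, the transcription factor ETV4 stood at 1.97, 1.8 and 1.79 CPM in MYC-ER against 25.8, 29.8 and 31.6 CPM in parental (-3.97, SE 0.11, adjusted p = 2.98e-17). SPRY4, which ERK signalling induces and which inhibits that pathway, stood at 7.06, 6.84 and 6.34 CPM against 74.1, 81.8 and 81.8 CPM (-3.55). ETV5 differed by -3.29. The lines did not overlap for these genes. Of 14 AP-1 and early growth response genes 9 were lower and 3 higher (median -0.99), with FOSL1 at -2.73, FOS at -2.27, EGR1 at -2.03 and JUNB at -0.69. Among 13 EGF receptors and ligands 8 were lower, and 0 to 2 were higher depending on which library was left out (1 with all libraries, median -1.19). The ligand EREG stood at 4, 4.61 and 4.52 CPM against 40.9, 35.2 and 41.8 CPM (-3.17). HBEGF, AREG, EPGN and TGFA, other ligands, differed by -2.40, -1.48, -1.33 and -1.24. EGFR, the receptor, was not called (710, 699 and 697 CPM against 734, 742 and 753, adjusted p = 0.52).

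Most TGF-beta and YAP genes were lower in MYC-ER, while Notch and BMP genes were divided. Of 26 activin and TGF-beta genes 20 were lower and 3 higher (median -0.53; 5 higher with upper-quartile scaling). INHBA, the activin subunit, stood at 3.36, 3.35 and 3.39 CPM in MYC-ER against 18.9, 19.4 and 16.1 CPM in parental (-2.43), and PMEPA1, a target that damps the pathway, differed by -2.28. LTBP3, which holds latent TGF-beta in the matrix, was higher (1.82). Of 21 YAP and TAZ targets 12 were lower and 4 higher (-0.25), with F3, tissue factor, at -2.67, NT5E, an ectonucleotidase, at -2.57 and CCN1 at -2.13, against AXL, a receptor kinase, at 0.92. Among 19 Notch genes 9 were higher and 6 lower (0.45). The receptor NOTCH3 stood at 14.1, 12.8 and 12.5 CPM against 120, 137 and 126 CPM (-3.28), the target HES1 differed by -1.42 and the ligand JAG1 by -0.84, while MAML3, a co-activator, was higher by 0.76 and the receptor NOTCH1 by 0.74. The receptor NOTCH4 and the ligand DLL1, both under 3 CPM, were higher by 3.58 and 1.99. In the BMP list 7 of 18 were lower and 3 higher, with ID1 at -2.03 and ATOH8, a target, at 2.04. Of 17 oestrogen response genes 8 were lower and 6 higher (-0.55). GREB1, a classic target of the receptor, stood at 42.4, 46.2 and 41.6 CPM against 4.09, 3.53 and 3.6 CPM (3.53), and NRIP1, a corepressor, differed by -1.22.

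Genes of antigen presentation, complement and part of the interferon response were higher in MYC-ER. Of 18 genes of MHC class I presentation 14 were higher and 2 lower (median 0.98). HLA-B stood at 228, 239 and 233 CPM in MYC-ER against 52.5, 58.7 and 58.1 CPM in parental (2.05, SE 0.08, adjusted p = 9.95e-15), 4.14-fold higher. B2M, the shared light chain, stood at 708, 711 and 705 CPM against 400, 382 and 410 CPM (0.83). The lines did not overlap. The HLA genes are near copies of each other, so their rows are uncertain. PSMB9, an immunoproteasome subunit, differed by 3.19, HLA-F by 1.76, NLRC5, the activator of these genes, by 1.55 and TAP1, the peptide carrier, by 1.40. Interferon-stimulated genes are known to carry elements such as GAAANNGAA, where N is any base. This string was in 7 of 14 promoters of the presentation list (50%) and in 17 of 25 of the interferon list (68%), against 8.11% of all promoters. The HLA-F promoter (chr6:29723184-29723483, plus strand) is shown with its match, on the opposite strand, in capitals. A match in any of these windows is a run of letters, not a measured binding site. For list members 1 promoter per gene was counted, while the share of all promoters was over every promoter on record. The lists hold genes of known function, so these shares describe the lists and not the 48 h difference.
HLA-F: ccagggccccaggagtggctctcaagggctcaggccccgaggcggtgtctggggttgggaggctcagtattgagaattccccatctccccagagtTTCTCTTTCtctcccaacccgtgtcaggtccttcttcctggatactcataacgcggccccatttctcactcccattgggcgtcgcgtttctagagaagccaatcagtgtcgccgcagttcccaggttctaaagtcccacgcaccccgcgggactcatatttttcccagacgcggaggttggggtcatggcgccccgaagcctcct

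Of 32 interferon-stimulated genes 20 were higher and 6 lower (median 0.59). IRF1, an interferon-induced transcription factor, stood at 70.8, 71.9 and 70.5 CPM in MYC-ER against 13.2, 13.1 and 14.2 CPM in parental (2.40, SE 0.06, adjusted p = 1.83e-17), with no overlap. IFIT2, IFIT3 and DDX60, antiviral proteins, differed by 2.84, 1.72 and 1.09. Of 18 complement and acute phase genes 12 were higher and 3 lower (median 2.01). CFB, complement factor B, stood at 99.2, 100 and 116 CPM against 7.34, 6.42 and 6.72 CPM, 15.4-fold higher (3.94, SE 0.09, adjusted p = 1.22e-18). C3, the central complement protein, stood at 1539, 1533 and 1582 CPM against 513, 580 and 597 CPM (1.46). Both sets of values were apart. Besides CR2, the proteases C1R and C1S differed by 4.00 and 3.58, and SAA1, serum amyloid A, by 2.29. Of 23 cytokines and chemokines 11 were higher and 8 lower. Their median was 0.65, and ran from 0.31 (without parental replicate 1) to 1.36 (without parental replicate 3). IL32 and CXCL2 differed by 3.05 and 2.69, while CSF3, the growth factor of granulocytes, differed by -1.91 and CXCL8 by -1.46.

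The epithelial programme was mixed. Of 20 basal genes 11 were lower and 4 higher (median -0.46). KRT14, a basal keratin, stood at 1040, 929 and 885 CPM in MYC-ER against 5520, 6271 and 6692 CPM in parental, 6.48-fold lower (-2.70, SE 0.11, adjusted p = 1.18e-14). KRT15, another basal keratin, stood at 1880, 1876 and 1929 CPM against 329, 349 and 337 CPM (2.49). The lines were apart in both, in opposite directions. KRT5, the keratin that pairs with KRT14, differed by -0.58 and the integrin ITGA6 by -1.80. TP63, the basal master regulator, was not called (140, 139 and 138 CPM against 160, 156 and 169, adjusted p = 0.0899). Of 12 tested luminal genes 6 were higher and 2 lower (1 lower without MYC-ER replicate 2, parental replicate 2 or parental replicate 3, 3 without parental replicate 1), with a median of 0.11 that ran from 0.00 to 0.26 when libraries were left out. EPCAM, an epithelial adhesion molecule, stood at 38.6, 39.8 and 38.3 CPM against 6.76, 6.51 and 6.84 CPM, 5.8-fold higher (2.54). KRT8, a luminal keratin, differed by 2.19 and MUC1, a mucin, by 1.05. KRT18, the partner of KRT8, overlapped between the lines (222, 209 and 211 CPM against 185, 239 and 245) and was not called. FOXA1, another luminal member, went the other way and was 3.33-fold lower (-1.73). It had 97 to 114 counts in MYC-ER against 317 to 382 in parental. Of 29 squamous differentiation genes 15 were lower and 5 higher (median -0.62, -0.96 without MYC-ER replicate 1). S100A9, a calcium-binding protein, differed by -2.44, SPRR1B and SPRR1A, cornified envelope proteins, by -2.29 and -2.04, and KRT6B by -2.12. Other members went the other way. KRT1, a keratin, was 2.77-fold higher in MYC-ER (3782 to 4941 counts against 1266 to 2019 in parental). KLK7, a protease, was 3.44-fold higher (213 to 258 counts against 53 to 82). The SPRR1 and KRT6 genes have close copies and are uncertain.

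Matrix genes were divided, and secreted proteases and their inhibitors leaned lower. Of 36 collagens, laminins and matrix proteins 17 were higher and 9 lower (median 0.22). FN1, fibronectin, stood at 3.51, 3.14 and 3.6 CPM in MYC-ER against 43.1, 42.9 and 41.6 CPM in parental (-3.64, SE 0.13). THBS1, thrombospondin, stood at 23.6, 25.1 and 21.2 CPM against 175, 189 and 203 CPM (-3.02), TNC, tenascin, differed by -2.48 and SPARC by 1.70. No library of one line overlapped with the other for FN1 and THBS1. Of 20 metalloproteinases and genes of the plasminogen system 12 were lower and 5 higher. Their median of -1.88 was -0.21 with the stricter filter of 10 counts in every library, which removes members that are near 0 in one line. TIMP1, a metalloproteinase inhibitor, differed by -2.05 and TIMP3, a matrix-bound protease inhibitor, by 1.77. Genes of epithelial to mesenchymal transition had 8 of 20 higher and 8 lower (median 0.01). VIM, vimentin, stood at 907, 901 and 845 CPM against 267, 365 and 362 CPM (1.42), TWIST1 and ZEB2, transcription factors, differed by 1.52 and 1.05, and FOXC2 by -2.27. Of 15 fibroblast and endothelial markers 8 were tested, with 4 higher and 2 lower (0 lower with the stricter filter). PDGFRA, THY1, CDH5, FLT1 and CD34 had at most 8 counts in any of the 6 libraries. Others were well detected. COL1A1, a collagen chain, had 11388 to 14031 counts in MYC-ER against 9354 to 13514 in parental libraries. It was not called, at a difference of 1.11-fold. KDR, the VEGF receptor, differed by 3.94 (3873 to 4566 counts in MYC-ER against 230 to 305 in parental). DCN, decorin, differed by 0.60 (6766 to 8224 counts against 4104 to 6260). The 2 lower members, both markers of endothelium, were TEK at 0.0577 to 0.119 CPM against 0.455 to 0.671 CPM (-2.83) and PECAM1 at 0.304 to 0.377 CPM against 1.64 to 2.32 CPM (-2.53). The part of other cells in these differences was not tested.

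Stress and survival genes showed further differences. Of 20 FOXO targets and insulin signalling genes 16 were higher and 3 lower (median 0.77). FBXO32, an F-box protein of the ubiquitin system and a FOXO target, stood at 96.8, 97.3 and 99.6 CPM in MYC-ER against 5.04, 4.92 and 5.27 CPM in parental, 19.3-fold higher (4.27, SE 0.08, adjusted p = 8.41e-20). PDK4, which restrains glucose oxidation, differed by 2.63 and TXNIP, which restrains glucose uptake, by 0.99, while the adaptor IRS1 differed by -1.93 and the pseudokinase TRIB3 by -2.09. Of 28 p53 targets 16 were higher and 8 lower (median 0.37; 5 lower with library size alone), with GDF15, a stress hormone, at 1.87, TP73 at 1.25 and TIGAR, a fructose bisphosphatase, at -1.20. In the BCL2 family 8 of 16 were higher and 6 lower (median 0.23, from 0.13 without MYC-ER replicate 3 to 0.36 without MYC-ER replicate 1). BMF, a death-promoting member, stood at 15.6, 15.3 and 15.1 CPM against 1.45, 1.64 and 1.67 CPM (3.27). BBC3 (PUMA) and BIK, of the same kind, differed by 2.19 and 1.21, and BOK by -1.05. The lines were apart for FBXO32 and BMF.

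Of 28 lysosome and autophagy genes 9 were higher and 12 lower (median -0.11, and 0.03 with library size alone). GLA was among the lower members, at 2.21-fold below parental. GPNMB, a lysosome-linked glycoprotein, stood at 392, 395 and 399 CPM in MYC-ER against 23.9, 19.6 and 19 CPM in parental (4.25), SQSTM1, the autophagy receptor p62, at 1264, 1258 and 1238 CPM against 464, 488 and 482 CPM (1.39), and ULK1, the kinase that starts autophagy, differed by 1.25. The lines did not overlap for these genes. Of 23 NRF2 antioxidant genes 15 were lower and 5 higher (median -0.67; 8 higher with upper-quartile scaling), with SLC7A11, the cystine importer, at -1.70 and PRDX1, a peroxide-reducing enzyme, at -1.48. AKR1B10 and AKR1C2, aldo-keto reductases with close copies, differed by -2.39 and -1.39. Of 18 unfolded protein response genes 13 were lower and 2 higher (1 without MYC-ER replicate 1, median -0.38), with SDF2L1 at -1.01, DNAJB11, a chaperone partner, at -0.67 and XBP1 at -0.63. Among 28 ATF4 genes 11 were lower and 7 higher (median -0.06, and 0.08 with library size alone). DDIT3 (CHOP) and NUPR1, stress regulators, were higher by 1.59 and 1.26. TRIB3 and SLC7A11, also members of this list, were 4.26-fold and 3.24-fold lower. Of 20 hypoxia genes 7 were lower and 5 higher (median -0.06, and 0.08 with library size alone). CA9, a carbonic anhydrase, stood at 35.7, 36 and 32.3 CPM against 0.91, 3.04 and 2.39 CPM (4.05), HIF1A and EPAS1, the oxygen-sensing factors, differed by -1.04 and -1.16, and LOX, a collagen crosslinker, by 1.03.

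The lines already differed before 4-OHT: at 0 h, 14244 genes (64.3%) were called. These libraries are separate from those at 48 h. The 3 parental ones at 0 h differed more among themselves than the other replicates compared: the chi-square per degree of freedom between their counts was 159 to 261, against 15.6 to 19.7 in MYC-ER at 0 h and 8.45 to 63.3 within the 48 h groups. Mitochondrial genes took 3.86% of the counts in parental replicate 1 at 0 h, 7.28% and 7.03% in replicates 2 and 3, and 9.24% to 9.71% in MYC-ER, and the part of this in the 0 h differences was not tested. Leaving out 1 of the 6 libraries at 0 h left 13466 to 14531 genes called. The same sign was called at both times for 8511 genes, 67.7% of the 48 h calls and 59.8% of the 0 h calls. Across the 22158 genes the differences at 48 h and 0 h had a Spearman rho of 0.61, those at 48 h and 24 h 0.50 and those at 48 h and 8 h 0.03, given as a description over genes, which are not independent. The 8 h comparison called 10766 genes (48.6%) and the 24 h one 10936 (49.4%), and 1798 genes were called with 1 sign at all 4 times. The sign was opposite at 0 h and 48 h for 1262 genes, 729 of them higher at 0 h and lower at 48 h. The line difference at 48 h minus line difference at 0 h was itself tested, and 9970 genes (45%) were called. Of the 8511 genes, 3105 had a smaller and 942 a larger difference at 48 h by this test. The change in difference moved with GC content (rho 0.46) and with transcript length (rho -0.47) over 9784 genes. The 48 h difference alone had rho 0.12 and 0.06, and the 0 h difference alone -0.26 and 0.38. With the GC trend removed 9686 genes were called for the change in difference. The part of length was not tested.

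Of the 5 largest positive changes from 0 to 48 h, 4 belonged to mitotic genes and 1 to CR2 (6.74, adjusted p = 1.32e-07). The median of the mitotic list was -5.31, -4.31, 0.33 and -1.03 at 0, 8, 24 and 48 h. All 38 moved upwards from 0 to 48 h by the test of the change, as did 23.6% of all genes. UBE2C, a ubiquitin enzyme of mitotic exit, averaged 0.329 ± 0.0597, 1.58 ± 0.191, 59.1 ± 0.878 and 21.2 ± 0.819 CPM (SD, n = 3) in MYC-ER at these times. Parental cells had 50.6 ± 6.97, 51.3 ± 1.95, 46 ± 3.01 and 34.5 ± 1.07 CPM. The MYC-ER level thus lay far below parental at 0 and 8 h, above it at 24 h and below it again at 48 h, and the change in difference from 0 to 48 h was 6.56 (adjusted p = 1.26e-18). PIF1, a DNA helicase, changed by 7.04, TROAP, a spindle protein, by 6.42, NEK2, a centrosome kinase, by 6.41 and BIRC5, survivin, by 6.36. The S phase list had medians of -2.78, -1.61, 0.27 and -1.39. From 24 to 48 h, all 40 S phase and 37 of 38 mitotic genes moved downwards by the test of that change, which called 8275 genes (37.3%), 4248 of them downwards (19.2%).

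The MYC targets crossed sides: their medians were -0.90, 0.49, 0.14 and -0.79 at 0, 8, 24 and 48 h. At 8 h 40 of the 48 were higher (23.1% of all genes were), and at 48 h 42 were lower. ERK feedback genes had medians of -2.88, 0.14, -1.43 and -1.72 in the same order. DUSP6 averaged 1.45 ± 0.177, 182 ± 5.27, 12.9 ± 2.05 and 9.6 ± 0.752 CPM (SD, n = 3) in MYC-ER, and between 245 ± 26.7 and 331 ± 8.43 CPM in parental cells. Of the 4 times it was nearest to the parental level at 8 h (-0.86).

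**Figure D3:**
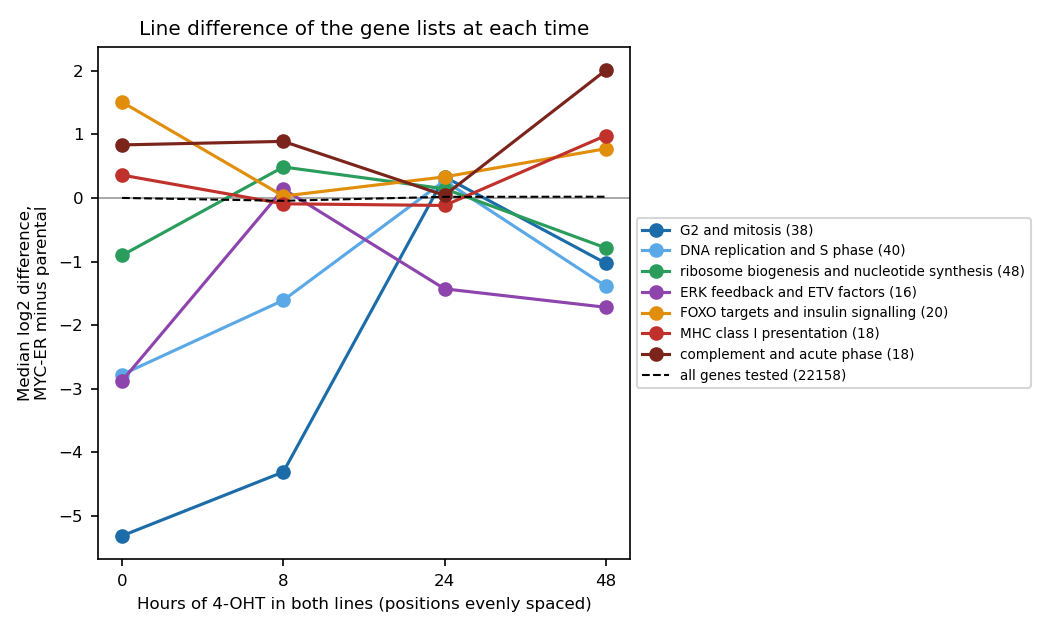
Median difference of 7 gene lists and of all genes tested at 0, 8, 24 and 48 h of 4-OHT, log2 of MYC-ER over parental, with the number of genes in brackets; times are evenly spaced. Mitotic genes run from -5.31 to -1.03 with a maximum at 24 h, and complement genes reach 2.01 at 48 h.

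Several immune genes were above parental at 0 h, near it at 24 h and above it again at 48 h. CSF1 averaged 54.4 ± 0.273, 3.64 ± 0.223, 4.49 ± 0.308 and 128 ± 0.246 CPM (SD, n = 3) in MYC-ER in this order of times, against 3.92 ± 0.359 to 5.03 ± 0.631 CPM in parental cells. CFB averaged 112 ± 8.11, 40.2 ± 0.779, 6.01 ± 0.531 and 105 ± 9.38 CPM, against 6.78 ± 0.123 to 11.1 ± 1.11 CPM. The difference of CFB at 48 h exceeded that at 24 h by 4.12 (adjusted p = 3.28e-16) and that of CSF1 by 4.48 (adjusted p = 3.28e-16). Of the 18 complement genes 11 moved upwards from 24 to 48 h and 1 downwards, of the 18 presentation genes 13 and 2, and of the 23 cytokines 16 and 1, where 18.2% of all genes moved upwards. The interferon list did not share this: 7 of its 32 genes moved upwards and 8 downwards, and its median was already 0.56 at 24 h, with 19 higher and 4 lower. ELF3 was likewise lowest at 8 and 24 h, with 5.98 ± 0.265, 0.301 ± 0.0497, 0.609 ± 0.178 and 22.3 ± 1.83 CPM in MYC-ER. EPCAM, CR2 and CA9 differed from this. EPCAM was lower in MYC-ER before 4-OHT (-1.70) and higher at every later time (1.82, 3.60 and 2.54). CR2 and CA9 were near 0 in MYC-ER at 0 h (0.142 ± 0.0568 and 0.19 ± 0.0525 CPM) and highest at 24 h (74.5 ± 3.69 and 212 ± 11.7 CPM).

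The largest negative changes from 0 to 48 h belonged to genes that were higher in MYC-ER than in parental cells before 4-OHT. KRT10, a keratin of differentiating squamous cells, stood at 5722, 6316 and 5811 CPM in MYC-ER at 0 h against 563, 533 and 523 CPM in parental, and at 101, 96.7 and 106 CPM against 219, 183 and 188 CPM at 48 h. The order of the lines was thus opposite at the 2 times, with differences of 3.46 and -0.96 and a change of -4.42 (adjusted p = 3.37e-16). ABI3BP and FBLN5, matrix proteins, changed by -5.00 and -4.98, and MMP7, a metalloproteinase, by -4.65. At 48 h FBLN5 stood at 1.37, 1.41 and 1.67 CPM in MYC-ER against 1.17, 1.36 and 1.41 in parental, and MMP7 also overlapped between the lines. SLC2A14, a glucose carrier with a close copy in SLC2A3, changed by -4.86 and is uncertain. At 48 h SLC2A14 was still 31.1-fold higher in MYC-ER than in parental cells. ABI3BP was still 4.23-fold higher, at low counts (54 to 104 against 4 to 28).

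**Figure D4:**
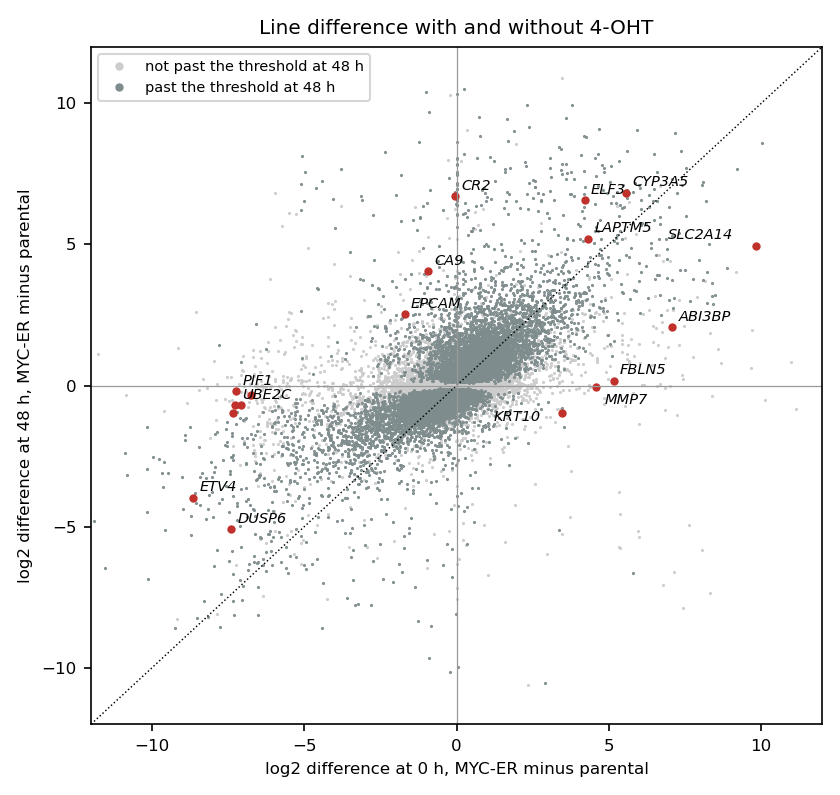
Difference at 48 h against difference at 0 h, both log2 of MYC-ER over parental, with 1 point per gene tested (dark points passed the test at 48 h) and the dotted line marking equal values. Red points are named genes: the mitotic genes PIF1 and UBE2C, with 3 unlabelled neighbours, lie at about -7 on the 0 h axis and near 0 on the 48 h axis, DUSP6 is negative and CYP3A5 positive on both, and KRT10 changes side.

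**Figure D5:**
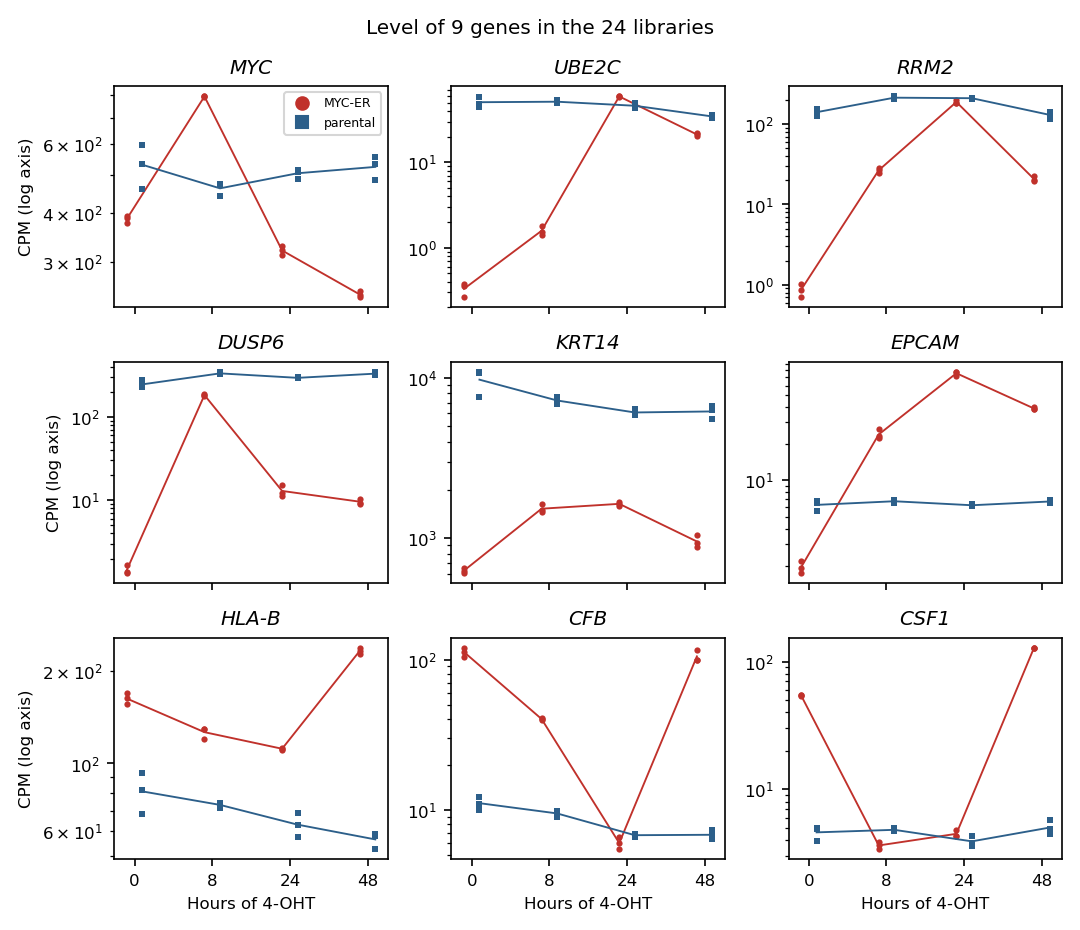
Level of 9 genes in all 24 libraries, in CPM on log axes that differ between panels, by hours of 4-OHT; points are libraries (circles MYC-ER, squares parental) and lines join group means. In MYC-ER, UBE2C is above the parental level at 24 h and RRM2 near it, and both are below it at 0, 8 and 48 h, and CSF1 and CFB are at the parental level at 24 h and above it at 0 and 48 h.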

How the data were processed

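Per the labels' protocols, stranded poly(A) libraries were sequenced as 150-base paired-end reads, 3 libraries per lane; the libraries of each lane are not named in the sources used here. The deposited table holds whole-number gene counts that were not normalised. The submitters' processing notes name Trimmomatic 0.39, STAR, StringTie 2.1.3b and GRCh38, with no roles. If StringTie made the table, a count is an estimate from coverage, and limits based on 3 counts are approximate. Such limits are for counting error only, as reads carried no molecular identifiers. The annotation release, strand use and the handling of reads matching several genes are not given in the sources used here. Of 60668 rows 60340 matched a symbol.

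Genes passing edgeR's filterByExpr (22158) were TMM-scaled. A model in edgeR 4.0.16, under R 4.3.3, had 1 mean for each of 8 groups over 24 libraries. For each gene, all groups share 1 estimate of the spread. The common biological coefficient of variation, a summary over genes, was 0.151. Line differences and their changes between times were tested by quasi-likelihood (two-sided), Benjamini-Hochberg adjusted over all genes, at 0.05. The fit was tested on simulated counts in which far fewer genes changed than were called here, equally up and down. That setting cannot check the scaling. GC content and length came from GENCODE 29 and promoters from RefSeq. Named genes were the 12 largest differences in each direction at 48 h and the 5 largest changes between 0 and 48 h in each direction, past the threshold, with a symbol that is no clone or Ensembl name, at 10 CPM or more in the highest group compared (and, at 48 h, without overlap), plus up to 4 members per gene list. Further list members were named after their values were seen: BIRC5, CDKN1A, CDKN1B, MKI67, NOTCH1, NOTCH4, DLL1, NCL, EGFR, TGFA, B2M, TAP1, C3 and SAA1. Also named in this way were CXCL8, KRT5, KRT18, TP63, TXNIP, COL1A1, FOXA1, KRT1, KLK7, ITGAM, TEK and PECAM1, and those named as not called. Some members that this rule names are not reported here. The comparison and the gene lists were chosen with earlier results of these data known. Alternatives covered scaling, filters, DESeq2 1.42.0, GC content, the samples fitted, a replicate block and each library left out.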

Additional observations from a re-analysis of the deposited data

Results flagged for a closer look

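The line difference at 48 h differed from that at 0 h for 9970 genes and from that at 24 h for 8275 genes, by the test of the change in difference. For KRT10 the change from 0 to 48 h was -4.42, and all 3 libraries of MYC-ER lay above all 3 of parental at 0 h and below them at 48 h.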

How the results depend on the processing

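Between 11031 and 13057 genes were called at 48 h under all alternatives, beside 12567. With the stricter filter of 10 counts in every library, 2725 genes differed at least 2-fold, 1671 higher and 1054 lower, among 16056 tested. Scaling by library size alone or by the upper quartile moved the difference of all genes by 0.14 and the share of higher calls from 48.2% to 59.8% and 59.7%. The medians of the ATF4, hypoxia and lysosome lists then changed sign, to 0.08, 0.08 and 0.03 with library size alone. The hypoxia median was also 0.03 with the GC trend removed. The GC trend moved the share of higher calls to 54.1%. Without a filter 12071 genes were called among 36454 tested, DESeq2 called 12754, and a fit to the 6 libraries alone called 13046.

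Leaving out 1 library at a time gave 11531 to 12193 genes at 48 h (5451 to 5869 higher, 6055 to 6324 lower), and 4119 to 4576 at least 2-fold different (2506 to 2912 higher, 1609 to 1664 lower). The ranges were 13466 to 14531 genes without 4-OHT, 9777 to 9882 with 8 h of it and 9766 to 10225 with 24 h. For the change from 0 to 48 h the range was 9149 to 11073, and for that from 24 to 48 h 7544 to 8090. Genes named by the rule gave 178 results, with CR2 counted both at 48 h and for the change from 0 to 48 h. Of their 2895 values under alternatives, 2884 kept their direction and side of the threshold and 0 reversed. A setting that did not test a gene gave no value for it. Genes named after their values were seen were not part of this check. The other 11 values were no longer past the threshold and belonged to MT-ATP8, KRT7 and ESR1. The cause was not tested.

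Deviations of same-numbered libraries of the lines correlated at -0.16, 0.06 and -0.12 at 48 h (mean -0.07). At 0 h they correlated at 0.05, 0.45 and 0.34, each library best with its own number, a hint of pairing from the data and not from the labels. The samples were not treated as paired, since 1 of the 3 values at 0 h was under 0.1. With the replicate number as a block 12503 genes were called at 48 h, and with the block in the 6 libraries alone 12299. For MYC-ER against parental at 0 h the block gave 14137 genes, and for the line difference at 48 h minus line difference at 0 h it gave 9881. A count of 0 allows at most 0.0219 CPM.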
